A study of Caenorhabditis elegans with 6 samples.

Results

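Of the 85 genes in the table analysed here, 6 encode proteins of sperm: *nspd-5* and the major sperm protein genes *msp-50*, *msp-49*, *msp-45*, *msp-33* and *msp-3*. They were taken by name, as every gene of the table whose WormBase identifier maps to an *msp* or *nspd* symbol. The table itself had been chosen on these libraries, as given below, and earlier results of these data were known. Levels were measured by mRNA-seq in 3 genotypes of *Caenorhabditis elegans* that differ in *hlh-11*, which encodes a basic helix-loop-helix transcription factor. There were 2 libraries per genotype, each from polyadenylated RNA of about 2000 whole, synchronized young adult worms grown on *E. coli* OP50 at 20 °C. The *hlh-11* KO worms carry a CRISPR/Cas9 replacement in the second exon that shifts the reading frame, and they come from 1 KO strain. The *hlh-11* OE worms overexpress *hlh-11*. The sources used here do not give the construct and promoter of the sequenced OE worms. The WT worms are N2, and the labels give N2 as the strain of all 3 genotypes. Sex, and whether the 2 libraries of a genotype came from separate cultures, are not stated, so a p-value here reflects only how far these libraries spread, which may be technical. *hlh-11* itself was not analysed here.

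Nematode sperm crawl on a pseudopod that is driven by assembly of major sperm protein in place of actin. The same protein also leaves the sperm as a signal that triggers oocyte maturation and contraction of the gonad sheath. Many near-identical *msp* genes are transcribed while spermatocytes develop, and mature sperm make no new RNA. A hermaphrodite makes its sperm late in larval life and then switches to oocytes, so that *msp* RNA in a population of young worms moves with developmental timing and with any males present. The *nspd* genes form one of the nematode-specific peptide families, and their short products are known from sperm.

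All 6 genes lie on chromosome II of the WBcel235 assembly, each with 1 annotated transcript of a single exon. On the minus strand lie *msp-3* (WBGene00003424, positions 4785898 to 4786281), *nspd-5* (WBGene00017386, 4860145 to 4860360), *msp-33* (WBGene00003431, 4892311 to 4892694) and *msp-45* (WBGene00003438, 5156700 to 5157083). On the plus strand lie *msp-49* (WBGene00003442, 5194366 to 5194749) and *msp-50* (WBGene00003443, 5199797 to 5200180), which are neighbours 5.05 kb apart. Each of the 5 *msp* genes spans 384 bases and codes for 127 amino acids, and *nspd-5* spans 216 bases and codes for 71. *msp-33* lies inside *gst-9*, a glutathione S-transferase gene on the opposite strand, and *msp-45* lies inside *srb-13*, a chemoreceptor gene on the same strand. Neither overlaps an exon of its host gene, and neither host gene is in the table.

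The 6 genes span 414 kb, a stretch with 122 protein-coding genes, 10 *msp* genes and 2 *nspd* genes among them. The only genes of this stretch in the table are the 6 sperm genes, while 16 of the 85 genes of the table lie on chromosome II. In the whole genome 31 *msp* genes are annotated, 13 on chromosome II and 18 on chromosome IV, and the 5 in the table are all on chromosome II. Of the 10 *nspd* genes, which are spread over chromosomes I, II, III and IV, 1 is in the table. All 41 genes of both families have a single exon, and 28 of the 31 *msp* genes have the same length of 384 bases. The other members of both families were not analysed here.

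**Figure D1:**
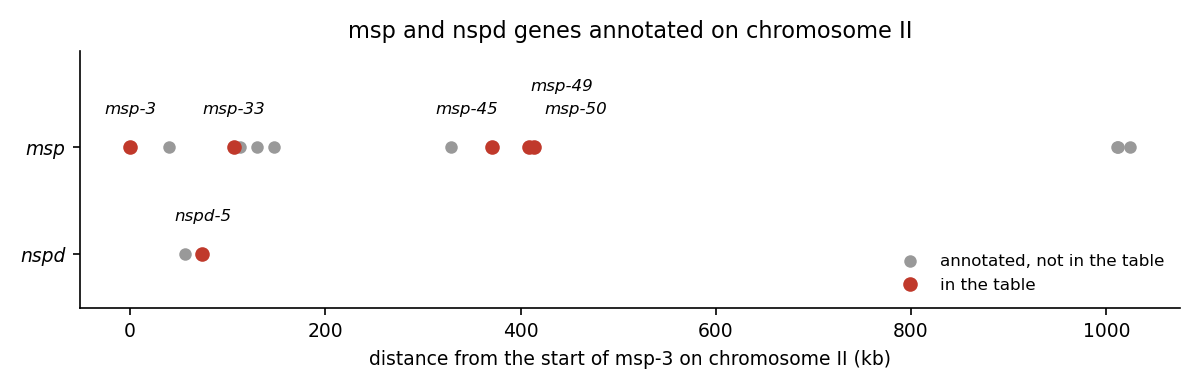
Positions of the *msp* (upper line) and *nspd* (lower line) genes annotated on chromosome II, as distance in kb from the start of *msp-3*. Red points are genes of the table and grey points are annotated genes that are not in it. The 6 red points lie within 414 kb, with grey points of both families among them.

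The values are RPKM, read counts scaled to gene length and library total. Every value of the table corresponded to a whole number of reads at inferred totals of 16538554 to 24023096 reads per library. The sperm genes had 421 to 2482 reads per library, so that counting error was 2.01% to 4.87% of a value. Because *msp* genes are near-identical copies, reads may have been shared or moved between them in counting, also from members of the family that are not in the table. The sources used here do not say how the authors treated reads that match several copies, so the level of a single *msp* gene is less certain than the sum of the 5.

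The table was not a neutral sample of genes. For all 85 genes the KO and OE means lie on opposite sides of the WT mean, with 60 genes higher and 25 lower in KO, so the genes had been chosen on these same libraries for opposite changes. The opposite directions of the sperm genes therefore follow from their being in the table and are given as a description. The p-values and calls below come from the libraries used for that choice and are descriptive too. The KO and OE comparisons also share the WT libraries. In these whole-worm samples, a change in the number of spermatogenic cells, in the share of males or in the RNA per cell cannot be told apart.

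All 6 sperm genes rose in *hlh-11* KO worms, with mean RPKM 1.71 to 1.957 times that of WT (median 1.82), and all 6 fell in *hlh-11* OE worms, to 0.502 to 0.724 times WT (median 0.609). *msp-33* had the highest deposited RPKM of the 6 in every library, an order that depends on gene length, as given below with the order of levels. It measured 258 and 284 RPKM in the KO libraries, 97.6 and 116 RPKM in the OE libraries, and 164 and 131 RPKM in the WT libraries. The 3 genotypes did not overlap, and the closest approach was between the higher OE library and the lower WT library.

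*msp-50* measured 243 and 245 RPKM in KO, 77.3 and 87.0 RPKM in OE, and 149 and 119 RPKM in WT. The KO libraries were almost equal, and no library of one genotype reached the range of another. *msp-45* measured 224 and 229.6 RPKM in KO, 63.3 and 81.2 RPKM in OE, and 142 and 107 RPKM in WT. Its WT libraries lay further apart than its KO libraries, and the 3 genotypes again did not overlap.

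*msp-49*, the neighbour of *msp-50*, measured 181 and 189 RPKM in KO, 47.8 and 55.9 RPKM in OE, and 120.1 and 86.3 RPKM in WT. It showed the widest gap between the WT libraries when taken as a ratio, and the lowest OE level relative to WT. *msp-3*, which had the lowest level of the 6 in 5 of the 6 libraries, measured 158 and 147 RPKM in KO, 48.98 and 45.4 RPKM in OE, and 83.4 and 72.3 RPKM in WT. Its KO level relative to WT was the highest of the 6. *nspd-5* measured 224 and 234 RPKM in KO, 81.9 and 104 RPKM in OE, and 148 and 119.9 RPKM in WT. It belongs to another family than the *msp* genes, and its 3 genotypes did not overlap either. Separate genotypes were the rule in this table and say nothing particular of the sperm genes: KO and WT were separate in 84 of the 85 genes (98.8%, either direction), OE and WT also in 84 (98.8%), and KO and OE in all 85.

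**Figure D2:**
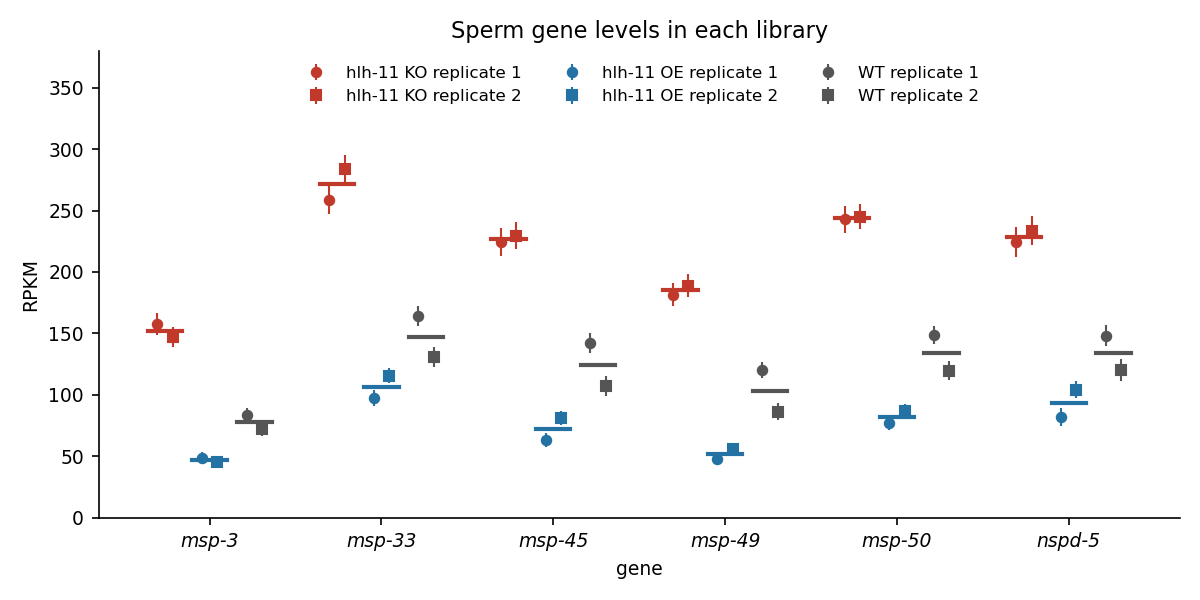
RPKM of each of the 6 sperm genes in each library: *hlh-11* KO in red, *hlh-11* OE in blue and WT in grey, with replicate 1 as circles and replicate 2 as squares. Vertical lines are 95% exact Poisson intervals of the recovered reads, which cover counting error only, and horizontal lines are means of 2 libraries. In each gene both KO libraries lie above both WT libraries, and both WT libraries above both OE libraries.

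KO against WT asks what loss of *hlh-11* does to each transcript. *msp-3* averaged 152 ± 7.53 RPKM in KO and 77.8 ± 7.85 RPKM in WT (SD, n = 2 each), a log2 fold change of 0.97 ± 0.16 (SE, limma adjusted p = 9.68e-09). *msp-33* averaged 271 ± 18.2 RPKM in KO and 147 ± 23.6 RPKM in WT, a log2 fold change of 0.89 (limma adjusted p = 1.33e-07). The log2 fold change was 0.88 for *msp-45*, 0.87 for *msp-50*, 0.86 for *msp-49* and 0.78 for *nspd-5*, with the same SE of 0.16, and the largest limma adjusted p of the 6 was 3.15e-06. All 6 passed the adjusted threshold of 0.05 upward, as did 60 of the 85 genes of the table (70.6%). Those 60 are all the genes that are higher in KO, so the call sets no sperm gene apart. The median log2 fold change was 0.87 over the sperm genes and 0.52 over all 85 genes. Among the genes higher in KO it was 0.77, and the sperm genes ranked 19 to 29 of 85 from the highest, so they are of moderate size within this table.

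The sizes in KO were close to each other. The 6 log2 fold changes spanned 0.78 to 0.97, each with a 95% confidence interval that held all the others, the widest bounds being 0.47 and 1.28. Both KO libraries were above both WT libraries for all 6 genes, which was so for 60 of the 85 genes (70.6%). WT library 1 was the higher of the WT libraries, and the result depended on the WT libraries in size but not in call. The median of the 6 was 1.06 without WT library 1 and 0.69 without WT library 2, and all 6 passed the test either way.

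OE against WT asks the reverse question, and here the genes differed more among themselves. *msp-49* averaged 51.8 ± 5.74 RPKM in OE and 103 ± 23.9 RPKM in WT (SD, n = 2 each) and fell by 0.97 on the log2 scale (SE 0.16, limma adjusted p = 1.07e-08). *msp-45* averaged 72.3 ± 12.6 RPKM in OE and 125 ± 24.5 RPKM in WT and fell by 0.78 (limma adjusted p = 3.48e-06). *msp-3* fell by 0.71, with 47.2 ± 2.55 RPKM in OE. *msp-50* fell by 0.70, with 82.1 ± 6.81 RPKM in OE. The smallest changes were those of *nspd-5*, with 93.1 ± 15.8 RPKM in OE and 134 ± 20.0 RPKM in WT and a log2 fold change of -0.53 (limma adjusted p = 0.00146), and of *msp-33*, with 107 ± 12.8 RPKM in OE and 147 ± 23.6 RPKM in WT and a log2 fold change of -0.46 (limma adjusted p = 0.00489).

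All 6 passed the threshold downward, as did 51 of the 85 genes (60.0%), in a table chosen for such changes. The median log2 fold change was -0.71 over the sperm genes, against -0.42 over all 85 genes and -0.58 among those lower in OE. Both OE libraries were below both WT libraries for all 6 genes, which was so for 59 of the 85 (69.4%). The calls of *msp-33* and *nspd-5* rested on single libraries. Without OE library 1 their limma adjusted p-values were 0.0856 and 0.0636, and without WT library 1 they were 0.138 and 0.0947.

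The scale of the libraries bears on these sizes. Setting the median log2 value of the 85 genes equal in all libraries moved the median change of all genes to 0.18 in KO and -0.04 in OE. On that scale all 6 sperm genes kept a higher level in KO than in WT, by 0.44 to 0.63, and passed the limma test. In OE the log2 fold changes were -0.60 for *msp-49*, -0.40 for *msp-45* and -0.34 for *msp-3*, which passed. They were -0.32 for *msp-50* (limma adjusted p = 0.0598), -0.15 for *nspd-5* (0.442) and -0.08 for *msp-33* (0.690), which did not. The same step turned the calls over all genes from 60 higher and 20 lower to 38 higher and 25 lower in KO, and from 25 higher and 51 lower to 25 higher and 23 lower in OE. As 60 of the 85 genes are higher in KO, in a table chosen for opposite changes, their median is itself no neutral reference.

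**Figure D3:**
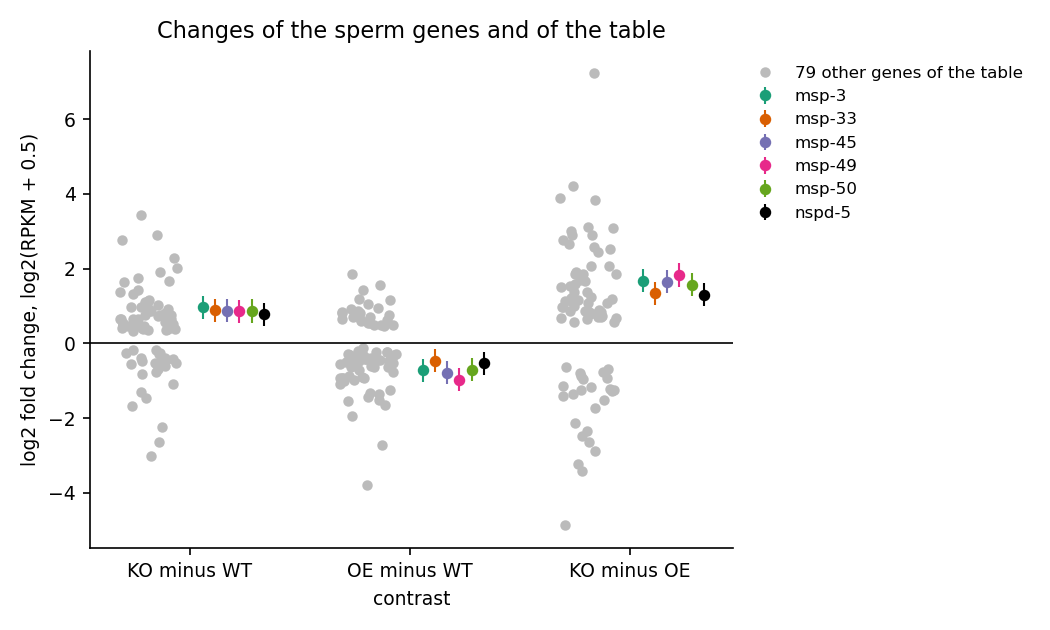
Log2 fold changes on the log2(RPKM + 0.5) scale for KO minus WT, OE minus WT and KO minus OE. Grey points are the other 79 genes of the table and coloured points are the 6 sperm genes, with 95% limma confidence intervals. The sperm genes lie at 0.78 to 0.97 in KO, -0.97 to -0.46 in OE and 1.30 to 1.83 in KO minus OE, inside the spread of the other genes.

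The difference between KO and OE uses no WT value, though the error of the fit below was pooled over all 6 libraries. The ratio of mean RPKM in KO over OE was highest for *msp-49* (3.57), followed by *msp-3* (3.23), *msp-45* (3.14), *msp-50* (2.97), *msp-33* (2.54) and *nspd-5* (2.46), with a median of 3.05. On the log2 scale these were differences of 1.83, 1.68, 1.65, 1.57, 1.35 and 1.30, each with an SE of 0.16, and the largest limma adjusted p was 1.22e-14. With only the KO and OE libraries in the fit it was 6.27e-05. All 6 were called higher in KO than in OE, as were 60 of the 85 genes (70.6%), and the median over all genes was 0.99. Counting either direction, all 85 genes were called in this comparison. The sum of the 5 *msp* genes was 1064 and 1095 RPKM in KO, 335 and 385 RPKM in OE, and 658 and 516 RPKM in WT.

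Whether the genes moved further from WT in KO or in OE was tested with the sum of both changes, which is 0 where they are equal and opposite. The sum was 0.43 for *msp-33*, 0.25 for *msp-3*, 0.25 for *nspd-5*, 0.17 for *msp-50*, 0.10 for *msp-45* and -0.11 for *msp-49*, each with an SE of 0.27. None of the 6 passed the limma test, and none had an unadjusted p under 0.05, while 10 of the 85 genes passed (11.8%, either direction). Voom on the recovered reads also called 0 of the 6. The smallest p of the 6 was 0.119, and the limma adjusted value was 0.504. The 95% confidence intervals of the 6 genes all held 0 and together reached from -0.65 to 0.96. Equal and opposite changes were therefore not shown either. The median sum was 0.21, and it was 0.49 without WT library 1 and -0.10 without WT library 2.

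The 2 libraries of a genotype differed in their sperm gene levels, most of all in WT. All 6 were higher in WT library 1 than in WT library 2, by 1.15 times for *msp-3*, 1.24 for *nspd-5*, 1.24 for *msp-50*, 1.26 for *msp-33*, 1.32 for *msp-45* and 1.39 for *msp-49*, each beyond counting error. The median log2 ratio of library 1 to library 2 was 0.32 over the sperm genes and 0.09 over the other 79 genes, 60 of which (75.9%) were also higher in library 1. In OE the order was turned round for all but *msp-3*: 5 of the 6 were lower in library 1 than in library 2, beyond counting error, with ratios of 0.780 to 1.08 over the 6. The median was -0.24 over the sperm genes and -0.14 over the others. In KO the ratios were 0.909 to 1.07, and only that of *msp-33* exceeded counting error.

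The residual SD on the log2 scale was 0.22 for *msp-45*, 0.22 for *msp-49*, 0.19 for *nspd-5*, 0.18 for *msp-33*, 0.15 for *msp-50* and 0.10 for *msp-3*, against a median of 0.12 over all 85 genes. The limma fit gave each gene the pooled SD of 0.16. With each gene held to its own spread instead, all 6 still passed in KO against WT (largest limma-based adjusted p 0.0354), and *msp-33* (0.0811) and *nspd-5* (0.0765) did not pass in OE against WT. The gap between the WT libraries, 1.15 to 1.39 times, was smaller than the ratio of KO to WT for every sperm gene.

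**Figure D4:**
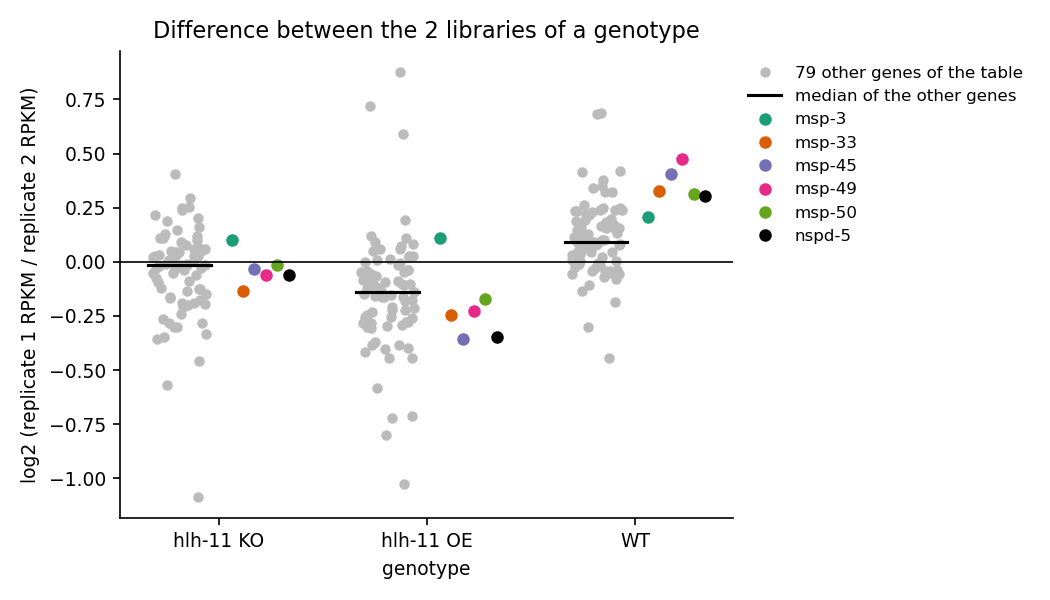
Log2 ratio of replicate 1 to replicate 2 within each genotype. Grey points are the other 79 genes of the table, with their median as a black line, and coloured points are the 6 sperm genes. All 6 lie above 0 in WT, 5 of 6 lie below 0 in OE and 5 of 6 in KO, where the ratios lie closest to 0.

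The make-up of the *msp* signal did not separate the genotypes for 3 of the 5 *msp* genes. *msp-50* held 22.4% to 23.2% of the summed RPKM of the 5 *msp* genes over all 6 libraries, a range of 0.776 percentage points. *msp-45* held 18.9% to 21.6%, and *msp-3* held 11.8% to 14.8%. For these 3 genes the genotypes overlapped, although the share of *msp-3* varied between libraries by 3.04 percentage points.

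The 2 other *msp* genes had different shares in OE. *msp-33* held 24.3% and 26.0% in KO and 29.1% and 30.0% in OE, against 24.9% and 25.3% in WT. *msp-49* held 17.02% and 17.3% in KO and 14.3% and 14.5% in OE, against 18.3% and 16.7% in WT. In both genes the OE libraries stood apart from the other 4, with a higher share of *msp-33* and a lower share of *msp-49*. The ratio of *msp-49* to *msp-33*, looked at because of these shares, was 0.701 and 0.665 in KO and 0.490 and 0.483 in OE, against 0.732 and 0.661 in WT. The 95% counting intervals of the OE ratios (0.436 to 0.550 and 0.439 to 0.532) lay below those of the WT ratios (0.680 to 0.789 and 0.599 to 0.729). In an exact permutation test of OE against WT the two-sided p was 0.333, the smallest that 2 libraries against 2 can give. Since the pair was picked after its values were seen, this is a description.

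The level of *nspd-5* was compared with that of the *msp* genes. Its RPKM divided by the mean of the 5 *msp* genes was 1.05 and 1.07 in KO, 1.22 and 1.35 in OE, and 1.13 and 1.16 in WT. The ratio was highest in OE and lowest in KO, with no overlap between genotypes. This order did not hold against *msp-33* alone. There the ratio was 0.867 and 0.822 in KO, 0.839 and 0.901 in OE, and 0.903 and 0.918 in WT. KO and OE overlapped in it, and OE was not the highest. *nspd-5* also had the smallest log2 fold change of the 6 in KO, and only *msp-33* had a smaller one in OE. These ratios were looked at after their values were seen and were not tested.

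**Figure D5:**
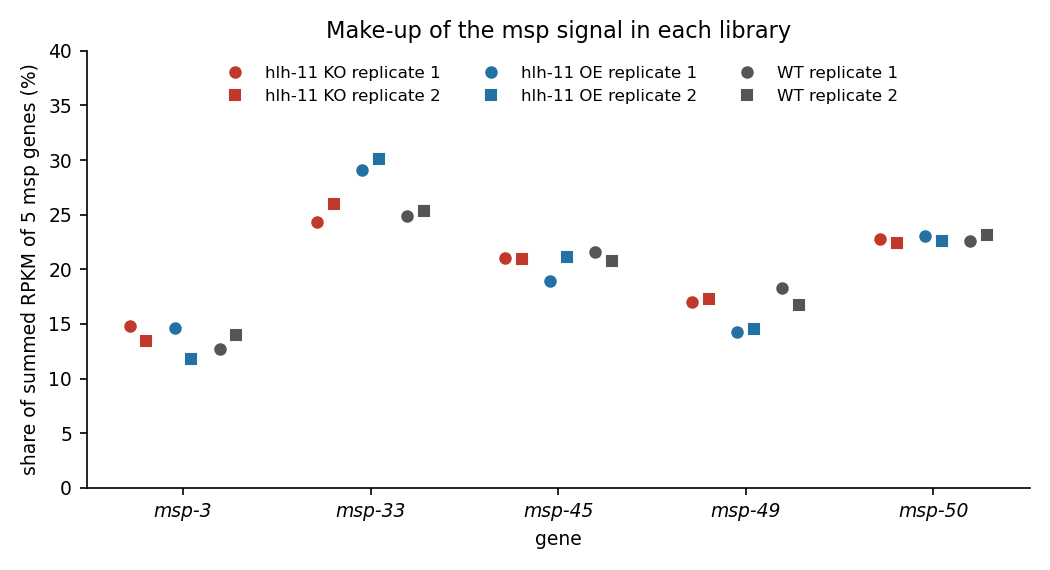
Share of each *msp* gene in the summed RPKM of the 5 *msp* genes, in percent, for each library: *hlh-11* KO in red, *hlh-11* OE in blue and WT in grey, with replicate 1 as circles and replicate 2 as squares. *msp-50* lies between 22.4% and 23.2% throughout, *msp-33* is highest in OE (29.1% and 30.0%) and *msp-49* is lowest in OE (14.3% and 14.5%).

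RPKM is a level per length, so the 6 genes can be put in order. In KO the order of the means was *msp-33*, *msp-50*, *nspd-5*, *msp-45*, *msp-49* and *msp-3*, and only the neighbours *nspd-5* and *msp-45* overlapped in their libraries. In OE it was *msp-33*, *nspd-5*, *msp-50*, *msp-45*, *msp-49* and *msp-3*, and only *msp-45* and *msp-49* were separate among neighbours. In WT it was *msp-33*, *msp-50*, *nspd-5*, *msp-45*, *msp-49* and *msp-3*, and only *msp-49* and *msp-3* were separate. Over all 6 libraries the means were 92.5 RPKM for *msp-3* to 175 RPKM for *msp-33*, ranks 44 to 23 of the 85 genes, whose median was 104 RPKM. The length behind each RPKM decides which gene is on top and also which neighbours overlap. The lengths recovered from the values exceeded the annotated ones by 71 to 77 bases for 4 of the *msp* genes and by 129 bases for *nspd-5*, and equalled the annotated 384 bases for *msp-45*. With the annotated lengths in their place, *nspd-5* was above *msp-33* and the highest of the 6 in all 6 libraries, with a mean of 243 against 209.8 RPKM for *msp-33*. At annotated lengths *msp-45* and *msp-49* overlapped in KO, with 224 and 229.6 against 217 and 227 RPKM. They also overlapped in OE, with 63.3 and 81.2 against 57.4 and 67.1 RPKM. The comparisons between genotypes do not depend on these lengths.

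Likeness to the sperm genes was measured as the root mean square difference in centred log2(RPKM + 0.5) over the 6 libraries from the mean profile of the 6. The sperm genes themselves lay 0.01 (*msp-50*) to 0.14 (*msp-49*) from that profile, which they define. The median of the other genes was 0.43, with the 25 genes that are lower in KO among them. The 5 nearest other genes were *asp-4*, an aspartyl protease gene on chromosome X (0.07), F26F12.3 on chromosome V (0.08), *tag-196*, a cathepsin-like protease gene on chromosome V (0.11), *adh-1*, an alcohol dehydrogenase gene on chromosome V (0.12), and F22B7.9 on chromosome III (0.14). *asp-4* and F26F12.3 lay nearer to the profile than *msp-33* (0.11), *nspd-5* (0.12), *msp-3* (0.12) and *msp-49* (0.14), which help define it. *asp-4*, for example, measured 373 and 371 RPKM in KO, 124 and 137 RPKM in OE, and 212 and 196 RPKM in WT. Its log2 fold changes were 0.87 in KO and -0.64 in OE, inside the range of the sperm genes. None of the 5 lies on chromosome II, which holds only 16 of the 85 genes, the 6 sperm genes included.

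Of a list of sperm genes that also held the *spe*, *gsp*, *ssp*, *ssq*, *smz*, *spch* and *msd* genes and *fer-1*, the table holds only these 6. It holds no gene of the lists for seminal fluid and male gonad, oocyte and early embryo, germ line, yolk, body wall muscle or neurons. Whether sperm genes in general, or germ line genes, moved with these 6 was therefore not tested.

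Markers of stage and of other tissues are given here beside the sperm genes, since they share the libraries and the way the table was chosen. Over all 85 genes, 70.6% were called higher in KO and 60.0% were called lower in OE (limma adjusted p under 0.05). All 7 cuticle collagen genes, whose products form the stage-dependent cuticle, were called higher in KO (median log2 fold change 2.03). The median is that of *col-150* and stands for few of them. The changes were 0.39 for *col-129*, 0.41 for *col-139* and 0.48 for *col-81*. They were 2.76 for *col-144*, 2.91 for *col-180* and 3.43 for *col-95*. In OE, 5 of the 7 were called lower and 0 higher (median -0.39). Their summed RPKM was 8018 to 8673 in KO, 4268 to 4567 in OE and 5404 to 6025 in WT. Of the 6 genes in the intestine list, 5 were called higher and 1 lower in KO (median 0.57). In OE, 4 were called lower and 1 higher (median -0.38). These shares are near those over all 85 genes. The one with the opposite directions was *asp-13*, an aspartyl protease gene, whose log2 fold change was -0.38 in KO worms and 0.50 in OE worms. Their summed RPKM was 3127.4 to 3129.6 in KO, 1670 to 1896 in OE and 2175 to 2208 in WT. The summed RPKM of the 6 sperm genes was 1288 to 1328 in KO, 417 to 489 in OE and 636 to 806 in WT. Within WT, 6 of the 7 collagen genes were also higher in library 1 (median log2 ratio 0.16). The part of developmental stage and tissue make-up in the sperm gene result was not tested.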

How the data were processed

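Tools named in the submitters' processing notes are TopHat2, FastQC 0.11.5 and DESeq2, with the genome build WBcel235. The authors aligned clean reads with TopHat2, called differential expression with DESeq2 and deposited RPKM values, 1 column per library. The columns named control were read as the WT libraries. The counting tool, strand use and treatment of multiply matching reads are not given in the sources used here. No sample, gene or column was left out.

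All 85 identifiers were matched to symbols and positions in the Ensembl release 115 annotation of WBcel235. Library totals were inferred from genes whose values fit an annotated length, with 3 to 6 such genes per library. Reads and gene lengths were then found as whole numbers that fit all 6 libraries. All 510 RPKM values came out whole within 1e-10 reads, and the recovered length of 61 genes was within 10% of the annotated one (median ratio 1.01). The common scale rests on annotated lengths, so totals and reads are inferred, and 95% intervals cover counting error only.

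From the RPKM, log2(RPKM + 0.5) was fitted for all 85 genes and 6 libraries with limma 3.58.1 in R 4.3.3 (eBayes with a constant prior, two-sided, Benjamini-Hochberg over 85 genes, threshold 0.05). Prior degrees of freedom were infinite, so each gene received the pooled SD of 0.157. Because 0.5 RPKM was added to each value, fold changes of low genes are understated. Scripts were tested on simulated data. Alternatives were other pseudocounts, a filter, median centring, a replicate block, limma-trend, no empirical Bayes, 2-genotype fits and leaving out each library.

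The text names all 6 sperm genes, the 5 other genes with the smallest root mean square profile difference, and members of the tissue lists. The genes and lists were chosen with earlier results of these data known. Other tools were Python 3.11.15, numpy 2.4.6, pandas 2.3.3, scipy 1.17.1 and matplotlib 3.10.9.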

Additional observations from a re-analysis of the deposited data

How the results depend on the processing

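Under 16 alternatives, 363 of 372 values of single sperm genes kept their side of the threshold, 9 lost it, and no called value changed sign. The KO against WT and KO against OE calls held for all 6 genes in each alternative, and the losses were in OE against WT (*msp-33* and *nspd-5* in 4 alternatives each, *msp-50* in 1). The 372 values include those for the sum of both changes, which was not called for any sperm gene and had no call to lose. Some alternatives also repeat a fit: OE against WT without a KO library is the same as the 2-genotype fit. With the libraries centred on the table median, 3 of the 6 genes were called in OE against WT, and 48 of the 85 genes, against 76 without centring. Leaving out 1 library at a time left 4 to 6 genes called in OE against WT and 6 in the other 2 comparisons of genotypes. Without empirical Bayes, 0 of the 85 genes were called for the sum of both changes, against 10 with it. Replicate numbers 1 and 2 recur in each genotype, but nothing in the sources says they pair the libraries, and the deviations of equal numbers correlated at -0.13, -0.14 and -0.11. With the replicate block 6, 6 and 6 genes were called in the 3 comparisons and 0 for the sum. A crossed pairing and voom on the recovered reads, both added after seeing the data, called 6, 6 and 6 as well. With 2 libraries per genotype, near-identical *msp* copies and a table chosen on these libraries, the values describe these 6 libraries. Fits that left 1 library in a genotype assume that it varies like the others.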
